A study of Mus musculus with 7 samples.

Results

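The genes described here are 10 genes that astrocytes express strongly at their membrane or in their cytosol: Mlc1, Hepacam, Aqp4, Gja1, Gjb6, Slc1a2, Slc1a3, Aldh1l1, S100b and Aldoc. They were matched by symbol to a table of 24346 genes, and 10 of 10 were present. The list was chosen by name with the FPKM values of Med23 CKO and control neurospheres already known, so the differences between the groups are given as descriptions, without a test. RNA was measured in neurospheres, which are floating clusters grown from hippocampal neural stem cells (NSCs), with 1 mouse per library. Control libraries came from 4 mice, here always given in the order WT_215, WT_116, WT_213, WT_220. The study describes fewer control samples for this experiment than are labelled as such here, and all labelled libraries were used. Med23 CKO libraries came from 3 mice, always in the order KO_117, KO_214, KO_218.

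Mice of both groups were on the strain C57/BL6, and hippocampi were taken at the age of 2 months. All had received tamoxifen by gavage at 200 mg/kg on each of 5 days; the labels place this at 2 months, whereas the methods of the study place it earlier for cultures. The labels also give a recovery of 3 to 4 weeks after tamoxifen for most experiments, which conflicts with tamoxifen and dissection both at 2 months, so the interval for these libraries is not known. Med23 CKO mice carried 2 floxed Med23 alleles and a tamoxifen-inducible Cre driven by the Nestin promoter. Littermates that carried floxed alleles, described without the Cre, served as control and are labelled wild type. Recombination is therefore limited to cells with an active Nestin promoter at tamoxifen, and cells without it could also grow into neurospheres.

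Astrocytes take up the glutamate that synapses release, buffer water and ions through their endfeet on blood vessels, and pass metabolites to each other through gap junctions. MLC1 and GlialCAM (the product of Hepacam) form a complex at junctions between astrocyte endfeet, and mutations of either gene cause a leukodystrophy with cysts. Radial glia-like stem cells of the adult hippocampus share much of this program, including Slc1a3, Aldoc and Hopx, so that these genes mark stem cells as well as mature astrocytes.

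A promoter window of each of Mlc1 and Hepacam is shown because these were the genes of the set whose groups did not overlap, in opposite directions. Both come from RefSeq on GRCm38.p6, run 5′ to 3′ on the strand of the gene, and span 300 bases around one annotated start. The window of Mlc1 is chr15:88978504-88978803 on the reverse strand, and that of Hepacam is chr9:37367356-37367655 on the forward strand. The 5′ end of the gene span is at 88982693 for Mlc1 and at 37367356 for Hepacam. Both windows thus lie inside the gene span, and neither reaches upstream of its 5′ end. Capitals mark matches on either strand to CCAAT (the CCAAT box), TTGGCA (an NFI half-site) or ACAAAG (a SOX motif), and no match overlapped another.
Mlc1: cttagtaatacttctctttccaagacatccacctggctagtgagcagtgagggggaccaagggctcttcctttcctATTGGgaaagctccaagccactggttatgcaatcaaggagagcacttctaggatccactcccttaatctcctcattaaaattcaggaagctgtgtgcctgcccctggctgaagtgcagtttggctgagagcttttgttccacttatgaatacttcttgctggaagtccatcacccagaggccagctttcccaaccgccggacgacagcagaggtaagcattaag
Hepacam: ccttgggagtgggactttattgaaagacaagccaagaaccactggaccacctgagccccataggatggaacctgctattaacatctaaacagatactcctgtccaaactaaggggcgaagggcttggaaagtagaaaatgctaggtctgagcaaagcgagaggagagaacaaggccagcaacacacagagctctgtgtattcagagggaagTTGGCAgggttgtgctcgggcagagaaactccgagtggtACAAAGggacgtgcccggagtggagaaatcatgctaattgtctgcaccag
The Mlc1 window held 1 CCAAT box and the Hepacam window held 1 NFI half-site and 1 SOX motif. Over 32851 windows of the same length, 37.4% held CCAAT, 14.1% held TTGGCA and 18.7% held ACAAAG. Windows were found for 9 of the 10 genes, with 2 for Aldoc. Among these 10 windows, 4 held CCAAT, 3 held TTGGCA (Hepacam, S100b and Aldoc), 1 held ACAAAG, 2 held TTCNNNGAA (a STAT motif, in 8.30% of all windows) and 1 held TATAAA (the TATA box, in 13.6%). A CCAAT match on the reverse strand reads ATTGG and can overlap TTGGCA, as it did in S100b. The Mlc1 window had 49.7% GC and 3 CpG, and the Hepacam window 50.7% GC and 6 CpG, against medians of 52.7% and 7 over all windows.

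FPKM (fragments per kilobase, scaled to the mapped fragments of the library) corrects for transcript length, so levels may be compared between genes. Between 16841 and 18113 genes had a value above 0 in a library, and the 10 most abundant genes held between 5.12% and 12.2% of the summed FPKM, with the highest share in KO_214. The sequencing depth behind these values is unknown. Sox2 and Nes, which mark NSCs, were at 69.4 FPKM or more and 61.1 FPKM or more in every library. Mog and Mbp, myelin genes of mature oligodendrocytes, were at 2.28 FPKM or more and 66.5 FPKM or more in every library, so the cultures held other neural cells too. In a bulk library, fewer cells of a type and less RNA per cell cannot be told apart. Med23 itself was at 11.4, 10.3, 12.9 and 10.1 FPKM in control neurospheres and at 9.97, 9.27 and 8.12 FPKM in Med23 CKO libraries, over the whole gene with its undeleted exons.

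Over the whole table, 14151 genes with a mean of at least 0.5 FPKM were compared on log2(FPKM + 1) by limma. At an adjusted p under 0.05 (Benjamini-Hochberg), 0% of genes were called. At an unadjusted p under 0.05, 71 genes were higher in Med23 CKO (0.502%) and 141 lower (0.996%). The groups did not overlap for 0.784% of the genes tested with Med23 CKO above control, and for 1.53% with Med23 CKO below. All 10 astrocyte genes passed the filter on low values. Of them, 6 had a higher mean log2(FPKM + 1) in Med23 CKO and 4 a lower one, where 43.8% of all genes tested had a higher one. The median difference of the 10 genes was 0.31, and that of all genes tested was -0.03. The values of 1 gene, Mlc1, lay wholly above control, those of 1 gene, Hepacam, wholly below, and for the other 8 the groups overlapped.

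**Figure D1:**
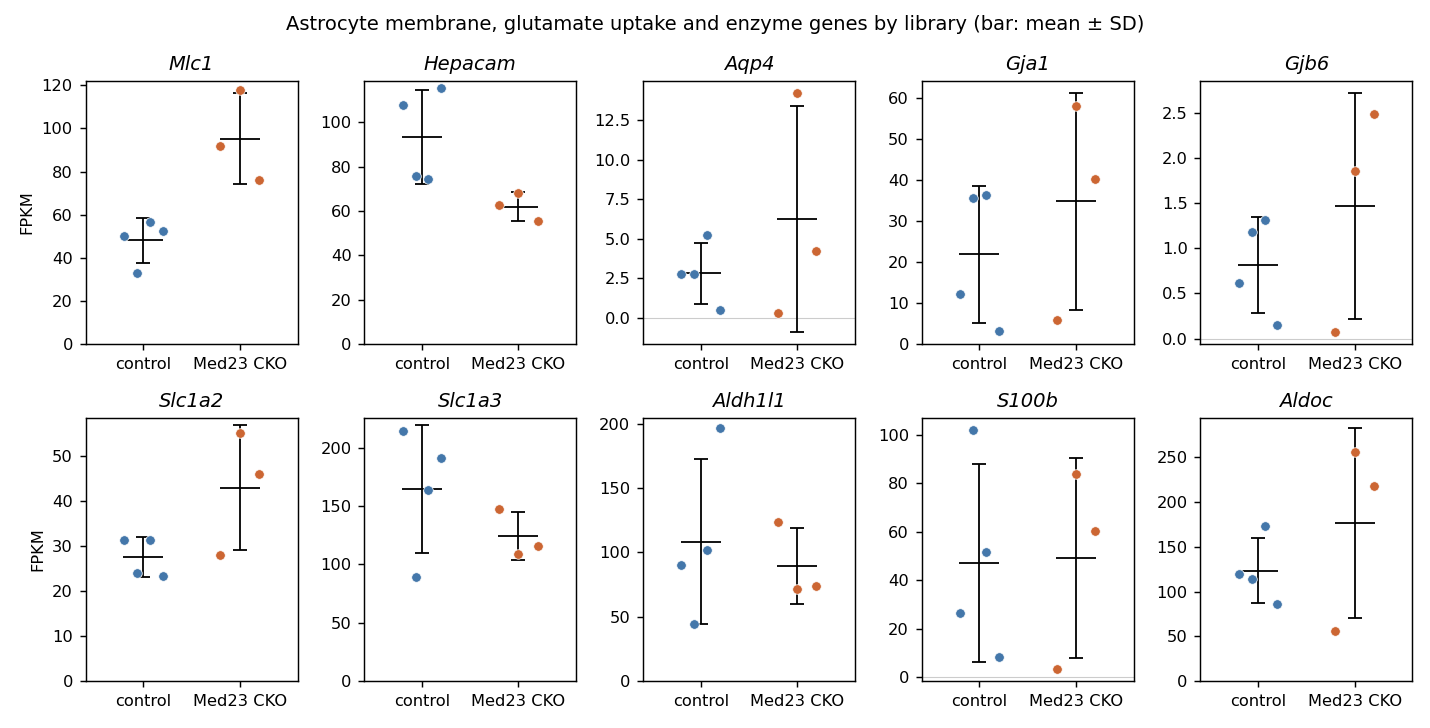
FPKM of each of the 10 genes (vertical axes, linear) in the 4 control libraries (blue) and the 3 Med23 CKO libraries (orange), 1 point per mouse, with the mean and SD of each group. Mlc1 lies between 76.0 and 118 FPKM in Med23 CKO and between 33.2 and 56.5 FPKM in control, Hepacam is lower in all Med23 CKO libraries, and the other 8 genes overlap.

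Mlc1 encodes a membrane protein of astrocyte junctions (chromosome 15, GRCm38, 88955884 to 88982693, reverse strand). It was at 50.3, 33.2, 56.5 and 52.5 FPKM in control and at 91.8, 118 and 76.0 FPKM in Med23 CKO. Every Med23 CKO library was above every control library, and KO_214 was the highest. The means were 48.1 ± 10.3 FPKM (SD, n = 4) and 95.2 ± 21.1 FPKM (SD, n = 3), a ratio of 1.98. On log2(FPKM + 1) the difference was 0.97 (standard error 0.24). Leaving out single libraries gave values between 0.81 and 1.12.

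Hepacam encodes GlialCAM, the adhesion protein that brings MLC1 to junctions (chromosome 9, 37367356 to 37386572, forward strand). It was at 108, 75.8, 74.5 and 115.6 FPKM in control and at 62.6, 68.1 and 55.4 FPKM in Med23 CKO. All Med23 CKO values lay under the control range, and the gap between the groups was narrow, from 68.1 to 74.5 FPKM. The means were 93.4 ± 21.3 FPKM (SD, n = 4) and 62.0 ± 6.37 FPKM (SD, n = 3), a ratio of 0.664. On the log2 scale this was a difference of -0.56 (standard error 0.21), between -0.66 and -0.45 when single libraries were left out.

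Both partners of the complex thus stood apart in opposite directions, and their ratio within a library separated the groups further. Mlc1 over Hepacam was 0.467, 0.438, 0.758 and 0.454 in control and 1.47, 1.73 and 1.37 in Med23 CKO. Hepacam was the more abundant of the pair in 4 of 4 control libraries and Mlc1 in 3 of 3 Med23 CKO libraries. The ratio was chosen after the values were seen. Both genes were selected on the same libraries, so their separation is no independent evidence.

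**Figure D2:**
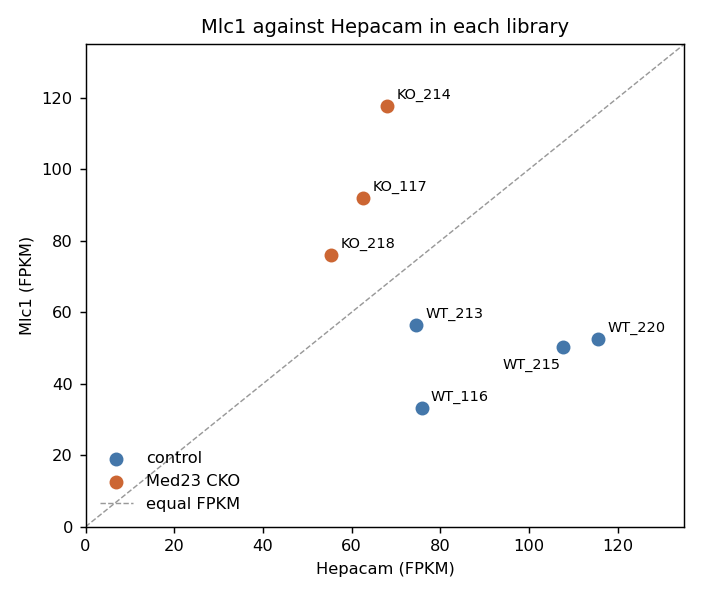
Mlc1 FPKM (vertical axis) against Hepacam FPKM (horizontal axis) in each library, labelled by mouse, with control in blue and Med23 CKO in orange. The dashed line marks equal FPKM, with all 4 control libraries below it and all 3 Med23 CKO libraries above it.

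Aqp4 encodes the water channel of astrocyte endfeet and was a low gene in these cultures, with a control mean above that of 21.2% of the genes tested. It was at 2.77, 2.80, 5.22 and 0.513 FPKM in control and at 0.336, 14.2 and 4.23 FPKM in Med23 CKO. KO_214 was the highest and KO_117 the lowest of the 7 libraries, so the Med23 CKO group held both extremes. The log2 difference was 0.48 (standard error 0.82), turning to -0.37 without KO_214 and reaching 1.39 without KO_117.

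The gap junction genes varied across the libraries like Aqp4. Gja1, which encodes connexin 43 (chromosome 10, 56377300 to 56390419), was at 12.2, 35.6, 36.4 and 3.31 FPKM in control and at 5.99, 58.0 and 40.4 FPKM in Med23 CKO. The lowest library was WT_220 and the next KO_117, 1 of each group. The log2 difference was 0.62 (standard error 0.98), with 0.03 without KO_214, 1.56 without KO_117 and -0.03 without WT_220. Gjb6, which encodes connexin 30 of mature astrocytes (chromosome 14, 57123301 to 57133611), was at 0.618, 1.18, 1.31 and 0.151 FPKM in control and at 0.0699, 1.85 and 2.48 FPKM in Med23 CKO. It was the lowest of the 10 genes, and KO_117 and WT_220 were again the lowest libraries. Its log2 difference was 0.33 (standard error 0.46), with 0.85 without KO_117 and -0.00 without KO_218. Gja1 over Gjb6 was between 19.7 and 30.2 in control and was 85.7, 31.3 and 16.3 in Med23 CKO.

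The 2 glutamate transporter genes differed from the control means in opposite directions, with overlap. Slc1a2, which encodes GLT-1, the main transporter of mature astrocytes (chromosome 2, 102658239 to 102790784), was at 31.3, 23.9, 31.3 and 23.3 FPKM in control and at 27.9, 55.0 and 45.9 FPKM in Med23 CKO. KO_214 and KO_218 were above all control libraries, and KO_117 was within their range. For Slc1a2 the log2 difference was 0.59 (standard error 0.26), between 0.38 without KO_214 and 0.86 without KO_117. Slc1a3, which encodes GLAST, the transporter of radial glia and immature astrocytes (chromosome 15, 8634124 to 8710807), was at 214.9, 89.0, 163 and 191 FPKM in control and at 147, 109 and 115.7 FPKM in Med23 CKO. The control library WT_116 was the lowest of the 7, and the Med23 CKO values lay inside the control range. For Slc1a3 it was -0.34 (standard error 0.31), and leaving out single libraries kept its sign, between -0.61 and -0.19. Slc1a3 over Slc1a2 was 6.86, 3.72, 5.22 and 8.23 in control and 5.29, 1.98 and 2.52 in Med23 CKO, so Slc1a3 was the more abundant in 7 of 7 libraries.

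Aldh1l1 encodes a folate enzyme that is used as a marker of astrocytes (chromosome 6, 90550768 to 90599171). It was at 90.2, 44.3, 102 and 197 FPKM in control and at 123, 71.4 and 73.8 FPKM in Med23 CKO. The control libraries held both the highest and the lowest value, and the log2 difference was -0.13 (standard error 0.47). Its sign depended on single libraries, with -0.49 without WT_116, 0.22 without WT_220 and 0.01 without KO_214. Its exons share 11.05% of their bases with an antisense gene, whose reads cannot be told apart where strand is not used.

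Aldoc encodes aldolase C, the brain form of this glycolytic enzyme (chromosome 11, 78323073 to 78327781). It was at 119, 114, 174 and 86.1 FPKM in control and at 56.2, 256 and 218.04 FPKM in Med23 CKO. KO_214 and KO_218 were the highest libraries and KO_117 the lowest. The log2 difference was 0.30 (standard error 0.53), with -0.10 without KO_214 and 0.98 without KO_117.

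S100b encodes a calcium-binding protein of astrocytes that cells of the oligodendrocyte lineage also express (chromosome 10, 76253836 to 76261319). It was at 26.6, 102, 51.8 and 8.23 FPKM in control and at 3.49, 83.8 and 60.2 FPKM in Med23 CKO. WT_116 was the highest and KO_117 the lowest, and its SD of log2(FPKM + 1) over the 7 libraries was higher than that of 99.3% of the genes tested. The log2 difference was -0.27 (standard error 1.17), while the ratio of mean FPKM was 1.04, so the sign depended on the scale. It was -1.05 without KO_214 and 1.07 without KO_117.

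**Figure D3:**
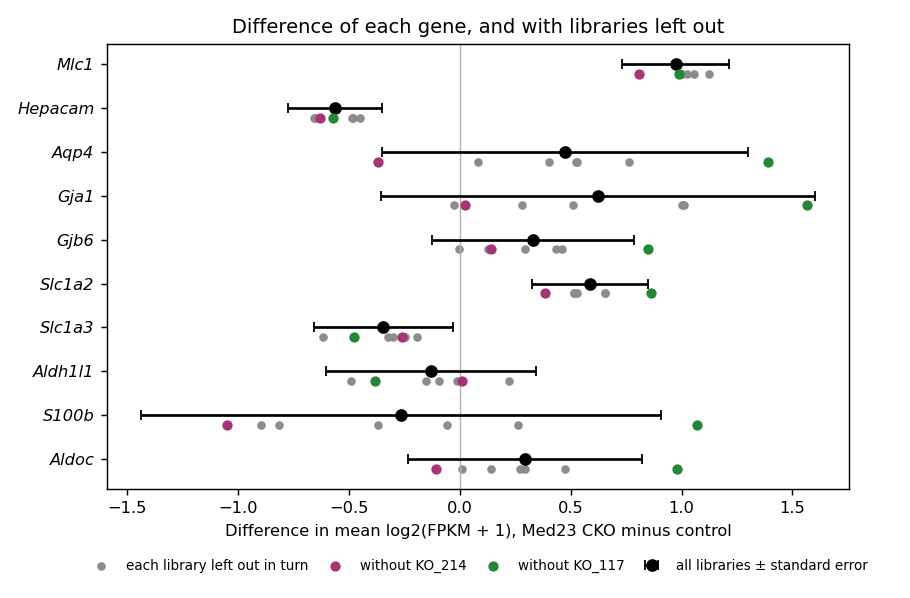
Difference in mean log2(FPKM + 1), Med23 CKO minus control (horizontal axis), for each gene with its standard error (black), and after leaving out single libraries (grey, with KO_214 in purple and KO_117 in green). Mlc1 stays between 0.81 and 1.12 and Hepacam between -0.66 and -0.45, whereas S100b runs from -1.05 to 1.07. The groups of Mlc1 and Hepacam do not overlap, so their sign could not change here.

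By control mean, the order of levels was Slc1a3 (165 ± 54.6 FPKM, SD, n = 4), Aldoc (123 ± 36.6), Aldh1l1 (108 ± 64.1), Hepacam (93.4 ± 21.3), Mlc1 (48.1 ± 10.3), S100b (47.2 ± 40.7), Slc1a2 (27.5 ± 4.49), Gja1 (21.9 ± 16.7), Aqp4 (2.83 ± 1.92) and Gjb6 (0.814 ± 0.534). Hepacam stood above Mlc1, Gja1 above Aqp4 and Aqp4 above Gjb6 in 4 of 4 control libraries. Each of the other neighbours changed places in at least 1 control library, and whether their levels differ was not tested. In Med23 CKO, Aldh1l1 stood above Hepacam, Mlc1 above S100b, Gja1 above Aqp4 and Aqp4 above Gjb6 in 3 of 3 libraries. Hepacam stood above Mlc1 in 0 of 3. The means there were 177 ± 106 FPKM for Aldoc, 124 ± 20.5 for Slc1a3, 95.2 ± 21.1 for Mlc1 and 89.5 ± 29.4 for Aldh1l1 (SD, n = 3), so Aldoc had the highest mean, although Slc1a3 stood above it in 1 of 3 libraries.

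Over the 7 libraries the genes fell into sets that were named after their values were seen. Among Aqp4, Gja1, Gjb6, S100b and Aldoc, the Pearson correlation of log2(FPKM + 1) was between 0.83 and 0.94 for the 10 pairs. Among Slc1a3, Hepacam and Aldh1l1 it was between 0.46 and 0.77 for the 3 pairs. Between these sets it was below 0 for 15 of 15 pairs, from -0.81 to -0.27. Mlc1 was in neither set, with 0.74 to Slc1a2 and between -0.51 and 0.31 to the other genes. Slc1a2 was also left out of both, with 0.47 to S100b and between 0.67 and 0.81 to the rest of the first set. With Slc1a2 in it, the range of the first set would begin at 0.47. To the second set its values were between -0.55 and -0.31. These are descriptions over 7 points that share their library, its scaling and the groups.

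**Figure D4:**
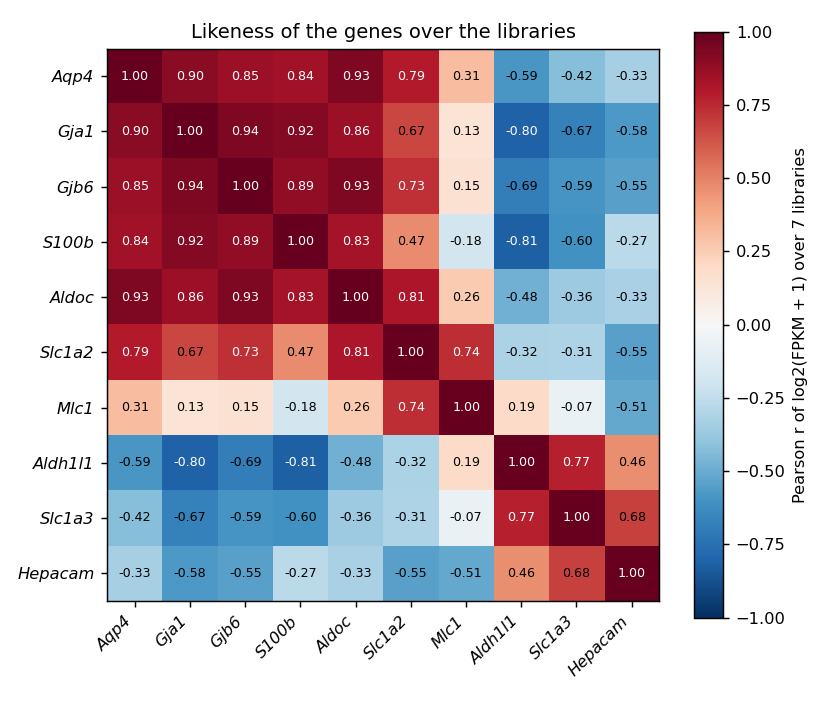
Pearson correlation of log2(FPKM + 1) over the 7 libraries for each pair of the 10 genes, from -1 (blue) to 1 (red). Aqp4, Gja1, Gjb6, S100b and Aldoc form a block between 0.83 and 0.94, and their values with Slc1a3, Hepacam and Aldh1l1 are between -0.81 and -0.27.

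Beside the 10 genes, the lists of other cell types differed between libraries of the same group. Counts of list genes with a higher or lower mean, here and below, are on log2(FPKM + 1). The mean log2(FPKM + 1) of 15 proliferation genes was 6.05, 4.28, 5.04 and 6.10 in control and 6.52, 3.23 and 5.15 in Med23 CKO. Of these genes, 0 had a higher and 15 a lower mean log2(FPKM + 1) in Med23 CKO (median difference -0.47). None of them had an unadjusted p under 0.05 in limma. WT_215, WT_220 and KO_117 were the highest, and these 3 libraries were the lowest for Gja1, Gjb6 and S100b. Mki67, a marker of dividing cells, was at 60.6, 12.2, 25.1 and 56.6 FPKM in control and at 86.5, 4.08 and 32.3 FPKM in Med23 CKO. Its mean FPKM was 38.6 in control and 40.9 in Med23 CKO, whereas its log2 difference was -0.44, so the sign depended on the scale. The list of 14 NSC genes was at 6.24, 5.38, 5.99 and 6.27 in control and 6.13, 5.14 and 5.56 in Med23 CKO, with 2 genes higher, 12 lower, a median difference of -0.33 and 0 at an unadjusted p under 0.05.

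KO_214 had the highest value for 5 of the 10 genes (Mlc1, Aqp4, Gja1, Slc1a2 and Aldoc), and for 25.4% of all genes tested. The same library also had the highest levels of non-neural markers. Of 16 microglia and macrophage genes, 15 passed the filter, the mean of 15 was higher in Med23 CKO, and limma gave 0 of them an unadjusted p under 0.05. Their summed level was between 59.4 and 344 FPKM in control and between 62.4 and 1352 FPKM in Med23 CKO. Defining markers such as Aif1 and Csf1r were at 16.7 and 21.2 FPKM in KO_214, and at 0.297 and 0.787 FPKM in KO_117. Of 12 endothelial genes, 11 were tested and 11 had a higher mean (summed level 12.1 to 85.8 FPKM in control and 7.93 to 147 in Med23 CKO). Their median difference was 0.51, and 0 had an unadjusted p under 0.05 in limma. Of 10 mural and fibroblast genes, 10 had a higher mean (16.2 to 98.8 FPKM and 11.4 to 356), with a median difference of 0.65 and 0 at an unadjusted p under 0.05 in limma. For both lists KO_214 was the highest and KO_117 the lowest of the 7 libraries. Of the genes in these lists, 0 were at 0 in all libraries, and their part in the values of the 10 genes was not tested. Without KO_214 the median difference of the 10 genes was -0.05, and without KO_117 it was 0.92. In KO_117, which had the lowest summed levels of these 3 lists in Med23 CKO, Mlc1 was at 91.8 FPKM and Hepacam at 62.6 FPKM.

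The oligodendrocyte lineage list of 12 genes had a summed level between 2981 and 5498 FPKM in control and between 2285 and 3366 FPKM in Med23 CKO. Of these, 1 had a higher and 11 a lower mean (median difference -0.58), and 0 had an unadjusted p under 0.05 in limma. Mog was at 36.3, 141, 48.7 and 9.02 FPKM in control and at 2.28, 89.3 and 77.1 FPKM in Med23 CKO, highest in WT_116 and lowest in KO_117, as S100b was. Mbp and Sox10 had the same extremes. Olig1 and Olig2 of the same list went the other way, with Olig1 at 437 FPKM in WT_116 and 1586 FPKM in KO_117. Olig2 was at 152 and 505 FPKM there, and both were highest in WT_220 and lowest in KO_214. The part of oligodendrocyte lineage cells in the S100b values was not tested. Of 12 neuron genes, 3 had a higher and 9 a lower mean (summed level 152 to 175 FPKM in control and 94.0 to 206 FPKM in Med23 CKO). Among them 1 was lower at an unadjusted p under 0.05 in limma. Of the 5 tested of 8 ependymal and choroid plexus genes, 5 had a lower mean (18.6 to 652 FPKM and 10.7 to 73.4 FPKM), and 0 passed.

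**Figure D5:**
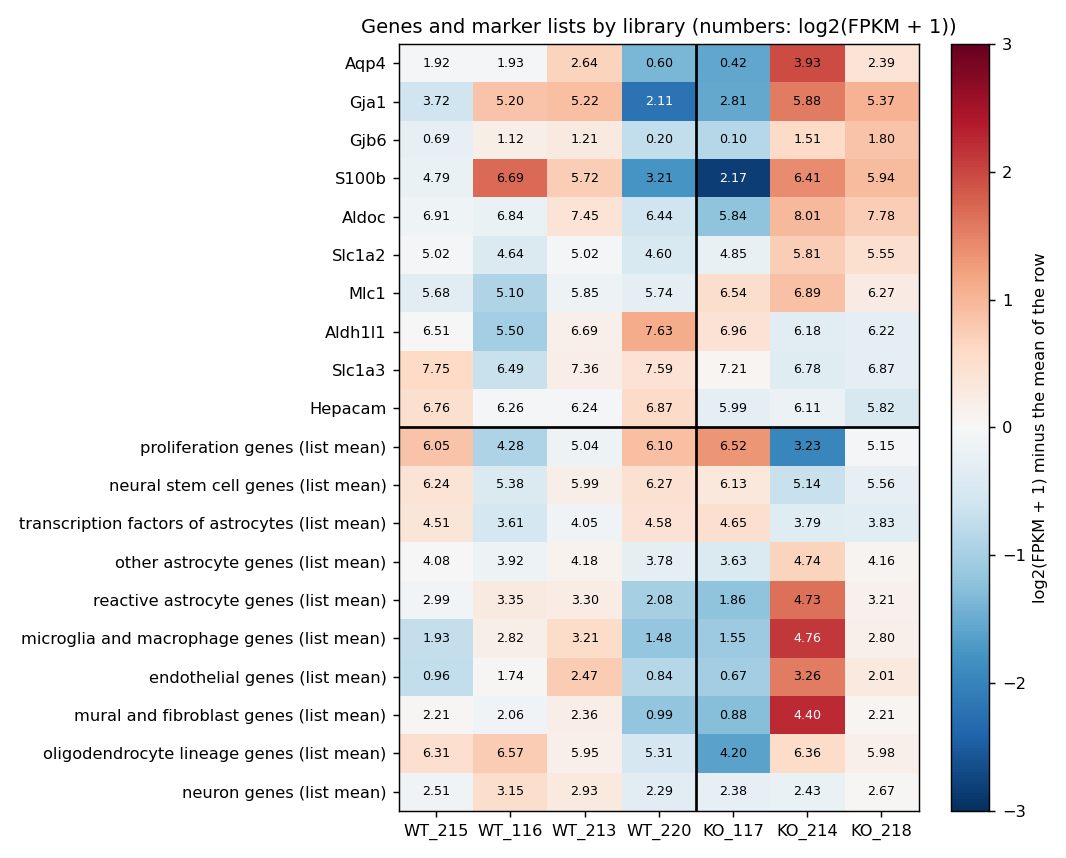
Level on log2(FPKM + 1) (printed numbers) of the 10 genes and mean level of 10 marker lists (rows) in each library (columns, control left of the black line), coloured by the distance from the mean of the row. Proliferation genes are highest in KO_117 (6.52) and lowest in KO_214 (3.23), and Gja1 runs the other way in these libraries.

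Further genes of the same roles gave few calls. Of 24 genes of glutamate and ion handling, 23 were tested, 13 had a higher and 10 a lower mean, with a median difference of 0.06. One was higher at an unadjusted p under 0.05, Slc38a3, a glutamine transporter of astrocytes. It was at 62.5, 32.1, 59.5 and 43.3 FPKM in control and at 74.9, 65.5 and 85.3 FPKM in Med23 CKO, a log2 difference of 0.64 (standard error 0.26, limma unadjusted p = 0.041, adjusted p = 0.9999). It was called in 3 of 7 fits with a library left out, and lost without WT_116, WT_220, KO_117 or KO_218 (limma unadjusted p up to 0.123). Glul, which turns glutamate into glutamine, and Kcnj10, the potassium channel Kir4.1, were in the same list and did not pass.

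Of 23 partners of the endfoot and MLC1 complexes, such as dystrophin, its associated proteins and the chloride channel gene Clcn2, 22 were tested, 15 had a higher and 7 a lower mean, and 0 passed in limma at an unadjusted p under 0.05, with a median difference of 0.11. Of 19 other connexins and pannexins, 11 were tested, 5 had a higher and 6 a lower mean and 0 passed (median -0.01). Of 20 other S100, aldehyde dehydrogenase and aldolase genes, 19 were tested, 14 had a higher and 5 a lower mean (median 0.13), and 1 was lower at an unadjusted p under 0.05. That gene was Aldh1a3, an enzyme of retinoic acid synthesis, at 3.01, 3.20, 8.33 and 4.70 FPKM in control and at 2.66, 1.001 and 2.16 FPKM in Med23 CKO. Its log2 difference was -0.94 (standard error 0.37, limma unadjusted p = 0.0348, adjusted p = 0.9999), and it was called in 3 of 7 fits, lost without WT_213, WT_220, KO_214 or KO_218 (limma unadjusted p up to 0.119).

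Of 30 other astrocyte genes, 28 were tested, 20 had a higher and 8 a lower mean, and the median difference was 0.21. Dio2, the deiodinase that makes active thyroid hormone, was higher at an unadjusted p under 0.05. It was at 16.1, 7.61, 16.5 and 12.5 FPKM in control and at 39.2, 17.4 and 32.3 FPKM in Med23 CKO, a log2 difference of 1.09 (standard error 0.36, limma unadjusted p = 0.0166, adjusted p = 0.9999). Every Med23 CKO library was above every control library, by a small margin for KO_214, and Dio2 was called in 5 of 7 fits, lost without KO_117 or KO_218 (limma unadjusted p up to 0.058). Fgfr3, an FGF receptor of astrocytes and their precursors, was lower, with a log2 difference of -1.28 (standard error 0.48, limma unadjusted p = 0.0295, adjusted p = 0.9999) and overlapping groups. It was at 20.3, 14.2, 27.6 and 50.3 FPKM in control and at 5.32, 15.2 and 11.5 FPKM in Med23 CKO, and was called in 3 of 7 fits, lost without WT_213, WT_220, KO_117 or KO_218 (limma unadjusted p up to 0.0978). Gfap, the intermediate filament of astrocytes, was at 39.2, 69.6, 138 and 17.8 FPKM in control and at 19.4, 321 and 116.5 FPKM in Med23 CKO. Its log2 difference was 0.81 (standard error 0.999), and KO_117 was below 3 of the 4 control libraries.

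Of 19 reactive astrocyte genes, 18 were tested, 14 had a higher and 4 a lower mean (median 0.37) and 0 passed in limma at an unadjusted p under 0.05. Their mean log2(FPKM + 1) reached 4.73 in KO_214, against 1.86 to 3.35 elsewhere. Of 19 transcription factors of astrocytes, 19 were tested, 8 had a higher and 11 a lower mean (median -0.07). Rorb, a nuclear receptor, was lower at an unadjusted p under 0.05, at 5.61, 4.47, 6.15 and 6.36 FPKM in control and at 3.45, 1.74 and 3.15 FPKM in Med23 CKO. Its log2 difference was -0.84 (standard error 0.24, limma unadjusted p = 0.0094, adjusted p = 0.9999), the groups did not overlap, and it was called in 7 of 7 fits with a library left out. Sox9, Nfia and Nfib, which drive the astrocyte program, did not pass.

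The genes most like the mean z-score of the 10 genes, by Pearson correlation over the 7 libraries, were Msrb3 (0.993), Tmem47 (0.975), Sfxn5 (0.974), Thrb (0.974), Me3 (0.973), Crygn (0.968), A430035B10Rik (0.968), Pde8b (0.967), Il34 (0.966) and Sfn (0.966). The 10 genes did not share this pattern, as 24 of their 45 pairs correlated above 0 (median 0.15). A high value here is therefore not likeness to each of them. Msrb3, an enzyme that repairs oxidised methionine, was at 3.64, 2.40, 5.16 and 2.34 FPKM in control and at 1.26, 8.93 and 5.26 FPKM in Med23 CKO. The genes most like Mlc1 alone were Dennd3 (0.972), Bmper (0.969), Itgb1 (0.965), Ube2g2 (0.959) and Lyn (0.955). Itgb1, the integrin beta 1 chain that binds the extracellular matrix, was at 162, 129, 173 and 151 FPKM in control and at 222, 219 and 186 FPKM in Med23 CKO. Like Mlc1, it was lowest in WT_116 and above the control range in all 3 Med23 CKO libraries. Itgb1 was picked for its correlation with Mlc1 on these same libraries, so its separation is no independent evidence. With 14151 genes searched over 7 libraries, high correlations arise for many genes, and no p is given.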

How the data were processed

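RNA of primary hippocampal neurospheres was measured in 7 libraries, 4 control and 3 Med23 CKO, matched to mouse and group by sample title. The authors prepared libraries with a kit that does not mark strand, removed adapters, aligned reads to mm10 with Tophat and deposited FPKM per gene from Cuffdiff (FastQC, TopHat and Cuffdiff also stand in the submitters' processing notes); the annotation is not given in the sources used here. The deposited columns with the authors' group means, log2 fold change, test score, p-value and q-value were not used, and 0 columns lacked a sample. Cuffdiff needs reads and could not be repeated.

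The deposited FPKM were turned into log2(FPKM + 1), a pseudocount of 1, and 14151 genes with a mean of at least 0.5 FPKM were fitted by limma 3.58.1 (lmFit, eBayes with trend, two-sided) in R 4.3.3, with Benjamini-Hochberg adjustment. Fold changes on this scale understate the change of low genes. Among ratios of low genes between libraries (21 pairs), no bin 0.05 wide on the log2 scale held over 3.72% of them, so whole fragments could not be recovered, depth is unknown and the number of libraries limits the precision. The script was first tested on simulated data.

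The 10 genes, the 15 related lists, the motifs and the rule for named genes were chosen with earlier results of these data known. The rule took the 10 genes, Med23, markers of cell types and genes of each list at an unadjusted p under 0.05 (where fewer than 3, filled up to 3 by smallest p). It also took the 10 genes most like the mean z-score of the set and the 5 most like Mlc1. Not every gene so chosen is printed. Some genes, such as Glul, Kcnj10, Sox9, Nfib and Aldoa, were named outside the rule. One list gene, Plpp3, was not matched. Alternatives were a pseudocount of 0.1, no filter, a mean of at least 1 FPKM, quantile normalization, centring on library medians, limma without trend, array weights, a covariate for mouse numbers beginning with 1, an exact permutation test per gene and each library left out; the log2 ratio of mean FPKM was added after the data were seen. Gene positions are from RefSeq and exon overlaps from GENCODE M21, both on GRCm38. Figures were drawn with matplotlib 3.10.9 in Python 3.11.15.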

Additional observations from a re-analysis of the deposited data

How the results depend on the processing

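Controls were littermates, but the labels do not say which libraries share a litter, so no paired analysis was possible. Of 150 values of single genes of the set under the alternatives, 10 had the other sign, in Aqp4, Gja1, Gjb6, Aldh1l1, S100b and Aldoc. All 150 moved by less than 1 SD between replicates. Leaving out 1 library cannot move a difference that far, and the filters on low values leave it unchanged. For those settings the count therefore says nothing on stability. Mlc1 (0.70 to 1.12) and Hepacam (-0.66 to -0.45) kept their direction under every alternative run, with array weights giving the lowest value for Mlc1. As their groups do not overlap, leaving out or reweighting libraries could not change that direction. Those fits are therefore no evidence of stability. The median difference of the 10 genes was 0.31, ran from -0.0474 (without KO_214) to 0.921 (without KO_117) when libraries were left out, with 0.11 without WT_220 and 0.0047 without KO_218, and from 0.31 to 0.58 under the other alternatives. The count of genes higher at an unadjusted p under 0.05 was 71, became 140 with no filter and 193 with array weights, and ran from 45 (without WT_215) to 354 (without KO_117), with 139 without KO_218. The count lower was 141, became 887 with array weights and ran from 70 (without KO_218) to 410 (without KO_117), with 79 without WT_215 and 76 without WT_220. At an adjusted p under 0.05 from limma, between 0 and 1 genes were called with libraries left out: 1 without KO_214 (Snora64) and 1 without KO_218 (Gm38671), named after their values were seen. The causes of these shifts were not tested. Depth is unknown, and Gjb6 and Aqp4 are low enough that single fragments may weigh in their values.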

Other observations

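Outside the astrocyte lists, Gad1, the enzyme that makes the transmitter GABA, was at 11.6, 8.92, 12.2 and 11.1 FPKM in the 4 control libraries and at 5.24, 2.21 and 4.42 FPKM in the 3 Med23 CKO libraries. Its log2 difference was -1.32 (standard error 0.27, limma unadjusted p = 0.00147, adjusted p = 0.9999), and it was called at an unadjusted p under 0.05 in 7 of 7 fits with a library left out. Ttr, a transport protein that choroid plexus makes in abundance, was at 630 FPKM in WT_215 and between 7.89 and 63.4 FPKM in the other libraries.

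Aldoa, the widespread form of aldolase, over Aldoc was 4.06, 3.71, 2.23 and 14.4 in control and 24.6, 2.85 and 1.65 in Med23 CKO, highest in KO_117 and WT_220, the same libraries in which Aqp4, Gjb6 and S100b were lowest. Mlc1 over Gfap was 1.28, 0.477, 0.408 and 2.95 in control and 4.72, 0.367 and 0.652 in Med23 CKO, so that these genes did not keep a fixed ratio within either group. Both ratios were chosen after the values were seen.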
